A study of Mus musculus with 6 samples.

Results

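Inverted joins inside Sμ, the first switch region of the antibody heavy chain locus (IgH), were examined in activated mouse B cells with and without intact ATM. The 891 junctions described here are every listed Sμ junction in plus orientation, the orientation in which the joined segment reads opposite to the way the locus is transcribed. They come from 2268 listed Sμ junctions and from 5608 junctions of any kind counted by the authors in 6 libraries. The libraries were made by high-throughput genome-wide translocation sequencing (HTGTS), which amplifies outward from a fixed bait, here the 5′ part of Sμ, and reads what the bait has joined (the prey). The 3 groups, with 2 libraries each, were wild type, ATM KO (genotype ATM-/-) and ATM RX/RX, which is homozygous for the R3057X allele of ATM. All were of strain 129, and per the series' design text all mice carried a preassembled IgH locus. The cells were splenic CD43- B cells, harvested on day 4 of culture with IL-4 at 20 ng/mL and anti-CD40 at 1 ng/mL. The labels tie no library to a separate animal, so the spread between libraries may be partly technical.

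Class switch recombination replaces the constant region of the antibody heavy chain by joining breaks in Sμ to breaks in a downstream switch region, after the deaminase AID has attacked both. ATM is the kinase that is activated at DNA double-strand breaks and helps to hold the broken ends until they are ligated. Breaks within Sμ can also be joined to each other. When the segment between a pair of breaks is deleted, the prey keeps the direction of the bait, which gives minus orientation. A plus junction can arise when the segment between a pair of breaks on the same molecule is inverted, whether the partner break lies downstream of the bait or upstream of the primers. It can also join breaks on separate molecules, such as sister chromatids or both alleles, and a junction list does not tell these apart.

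The bait begins at the nested primer and runs along the transcribed direction of IgH, which lies on the minus strand. Its first 120 bases in mm9 (chr12:114664790-114664909, minus strand) are printed because every member starts with a part of them. Capitals mark a palindrome of 20 bp, bases 56 to 75 of the bait, which equals its own reverse complement.

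Bait: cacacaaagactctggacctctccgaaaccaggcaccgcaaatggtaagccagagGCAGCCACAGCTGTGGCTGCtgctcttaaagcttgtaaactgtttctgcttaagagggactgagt

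Of 751 members whose bait alignment began at the primer and had no gap, 684 (91.1%) carried exactly these letters up to the break. The recognition site of AflII, the enzyme used to remove unrearranged product, occupies bases 104 to 109. The bait broke off before this site in 857 of 891 members (96.2%), and 13 members (1.46%) had the whole site. Positions below are given in mm9sr, the mm9 build in which the authors exchanged this part of IgH for 129 sequence. Its coordinates lay 4348 bp above mm9 at the bait, and the bait end, meaning the outer end of the nested primer, was at 114669257. In mm9 the bait end lies between Ighm, which encodes the constant region of IgM (chr12:114659078-114660941), and the nearest annotated J segment, Gm16734 (chr12:114666725-114666778), which starts 1816 bp upstream of it.

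Some inverted junctions recurred. Of 832 distinct members, defined by prey start, bait break and the distance between both alignments, 28 (3.37%) occurred in 2 or more libraries, and 4 occurred in all 6. In minus orientation 34 of 1324 distinct junctions (2.57%) were shared and 0 occurred in all 6. The 4 junctions found in every library are printed in full to show that they lie close to the bait and that each has an overlap. Capitals mark the microhomology, the bases that could belong to either side.

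Prey start 73 bp downstream, chr12:114669184-114669233, plus strand: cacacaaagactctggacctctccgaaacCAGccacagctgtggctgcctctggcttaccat

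Prey start 42 bp upstream, chr12:114669299-114669349, plus strand: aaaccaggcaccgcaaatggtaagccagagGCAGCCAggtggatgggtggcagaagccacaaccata

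Prey start 72 bp downstream, chr12:114669185-114669215, plus strand: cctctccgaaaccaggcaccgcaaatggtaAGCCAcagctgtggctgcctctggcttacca

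Prey start 19 bp upstream, chr12:114669276-114669349, plus strand: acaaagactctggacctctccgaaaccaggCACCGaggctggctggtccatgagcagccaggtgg

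Their overlaps were 3, 7, 5 and 5 bp. Both prey starts downstream of the bait end fell inside the palindrome (114669183 to 114669202 in mm9sr), where 24 of the 891 members began. Both upstream ones ended at 114669349, the outer edge of the biotin primer, and 17 members in all held the complement of that primer in their prey. Altogether 37 members used these 4 coordinates. They made up 11.9% and 14.7% of the members of wild type replicates 1 and 2, against 5.56% and 2.07% of those of ATM KO, and ATM RX/RX had 3.02% and 5.61%. The counts per library were alike (4 to 8), so the share was higher where members were fewer. Values are therefore also given below for junctions more than 200 bp from the bait end, which leaves these coordinates out. What makes them recur was not tested.

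The longest overlap of each genotype is printed because 2 of these 3 lay in the palindrome. In wild type the overlap of 20 bp was the whole palindrome, with bait break and prey start at the same base.

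Wild type, chr12:114669183-114669238, plus strand: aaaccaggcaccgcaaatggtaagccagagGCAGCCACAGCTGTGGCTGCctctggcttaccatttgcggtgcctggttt

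ATM KO, chr12:114668518-114668659, plus strand: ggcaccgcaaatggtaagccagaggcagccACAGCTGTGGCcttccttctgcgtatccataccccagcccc

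ATM RX/RX, chr12:114668534-114668617, plus strand: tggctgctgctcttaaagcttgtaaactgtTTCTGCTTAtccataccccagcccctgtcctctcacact

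The ATM KO overlap of 11 bp lay in the palindrome. That junction, 739 bp downstream, was found in 3 libraries with the same bait break, both of ATM KO and wild type replicate 1. The ATM RX/RX overlap of 9 bp lay further along the bait and included the start of the AflII site.

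Inverted joins took a larger share of the Sμ junctions in both mutants than in wild type. Wild type replicates 1 and 2 held 59 and 34 plus junctions, 24.8% and 24.5% of their listed Sμ junctions. ATM KO replicates 1 and 2 held 72 and 387, or 38.5% and 43.9%, and ATM RX/RX replicates 1 and 2 held 232 and 107, or 43.0% and 37.8%. Every mutant library lay above both wild type libraries, and the mutants overlapped each other. The group means were 24.6% ± 0.233 for wild type, 41.2% ± 3.80 for ATM KO and 40.4% ± 3.70 for ATM RX/RX (SD, n = 2). With 2 libraries against 2 the exact permutation test cannot go below p = 0.3333, the value found for each mutant against wild type. Fisher's exact tests between single libraries, which cover counting error only, told all 4 pairs of an ATM RX/RX and a wild type library apart (adjusted p 4.49e-05 to 0.0297 over 72 tests). They did the same for all 4 pairs with ATM KO (4.63e-06 to 0.0383). More than 200 bp from the bait end the shares were 23.0% and 23.0%, 37.2% and 43.6%, and 42.4% and 34.3%, in the same order.

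Depth differed between libraries. The authors counted 414 to 1849 junctions per library, of which members were 6.53% and 6.71% in wild type and 15.3% to 20.9% in the mutants. For ATM KO replicate 2 that share of 20.9% rests on 387 members, and for wild type replicate 2 the share of 6.71% rests on 34 and has a 95% exact interval of 4.69% to 9.25%. Listed minus Sμ junctions also took a larger share of all counted junctions in each mutant library than in both wild type libraries. They were 179 of 904 and 105 of 507 in wild type. ATM KO had 115 of 414 and 495 of 1849, and ATM RX/RX had 307 of 1233 and 176 of 701. The authors' own plus counts exceeded the listed ones by 2, 2 and 1 in ATM KO replicate 2 and ATM RX/RX replicates 1 and 2, where lines of the list were empty. The list's mark for duplicate reads was set for 0 junctions.

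**Figure D1:**
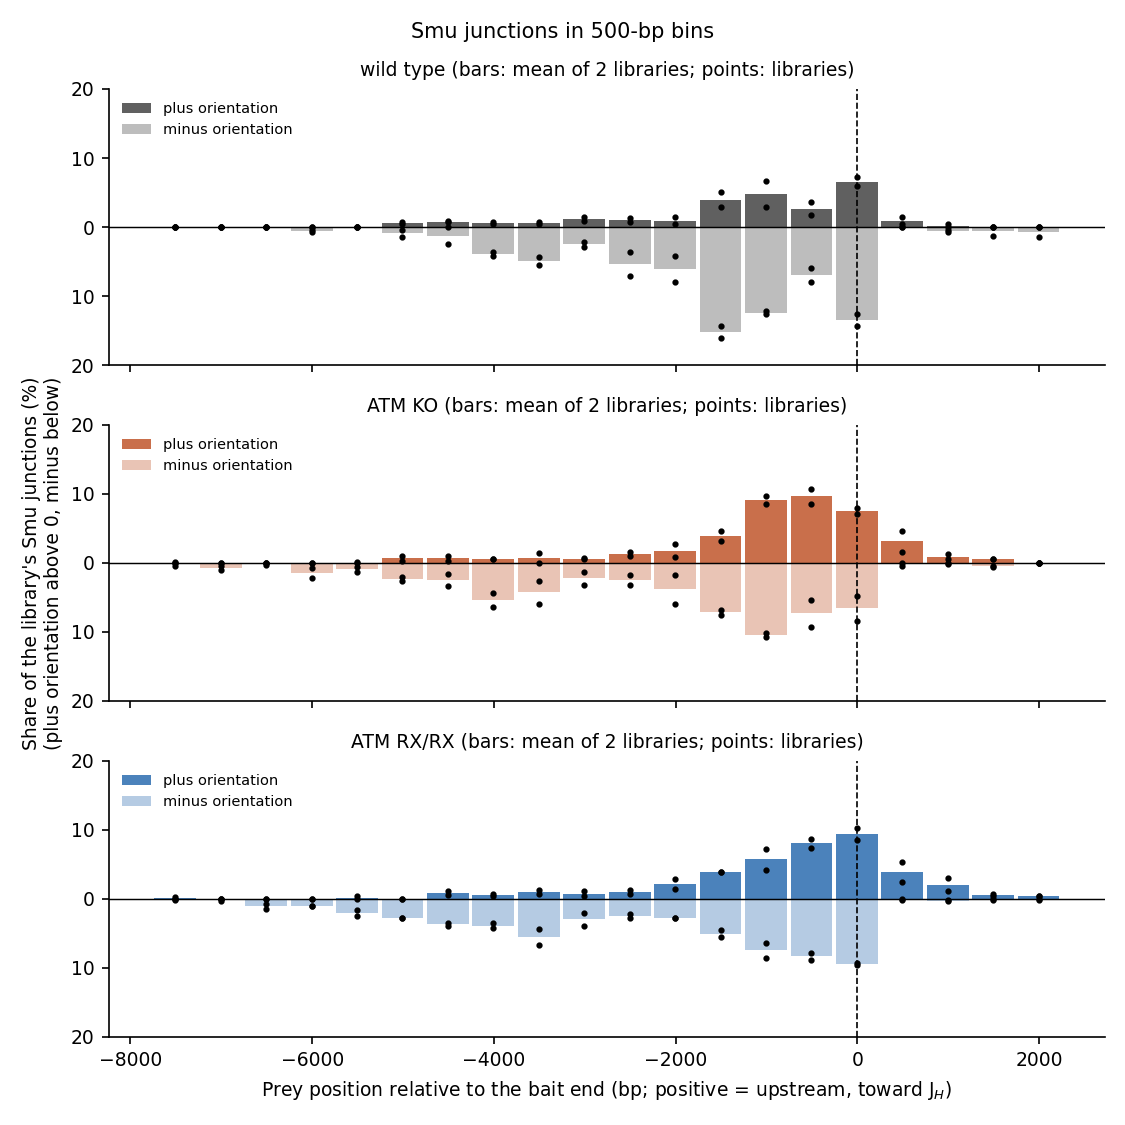
Share of each library's Sμ junctions (%) in 500-bp bins, against the position of the prey start relative to the bait end (bp, upstream positive), with plus orientation drawn above 0 and minus below it. Bars are means of 2 libraries and points are libraries. From 244 to 1243 bp upstream of the bait end plus bars stand nearly alone in both mutants. Over all libraries, the bin from 1244 to 1743 bp upstream held 10 plus and 9 minus junctions, and the last bin held 3 and 3. More than 200 bp upstream, plus junctions were 73 of 84 in ATM KO and 73 of 78 in ATM RX/RX, against 4 of 11 in wild type.

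Once the vicinity of the bait was left out, the share of members upstream of the bait was higher in each mutant library than in both wild type libraries. More than 200 bp from the bait end, upstream junctions were 2 of 46 and 2 of 26 members in the wild type replicates (4.35% and 7.69%). The ATM KO replicates had 9 of 64 and 64 of 342 there (14.1% and 18.7%), and the ATM RX/RX replicates had 56 of 199 and 17 of 82 (28.1% and 20.7%). The ranges of the 3 genotypes did not overlap. The means were 6.02% ± 2.36, 16.4% ± 3.29 and 24.4% ± 5.24 (SD, n = 2), with an exact permutation p = 0.3333 for each pair of groups, the smallest possible. Fisher's exact test separated 1 of 4 library pairs when wild type was set against ATM RX/RX (adjusted p 0.00258 to 0.296), 1 of 4 when it was set against ATM KO (0.0438 to 0.632) and 1 of 4 for the mutants against each other (0.0484 to 0.759). Only 4 wild type members lay there, which limits the precision of the wild type value.

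**Figure D2:**
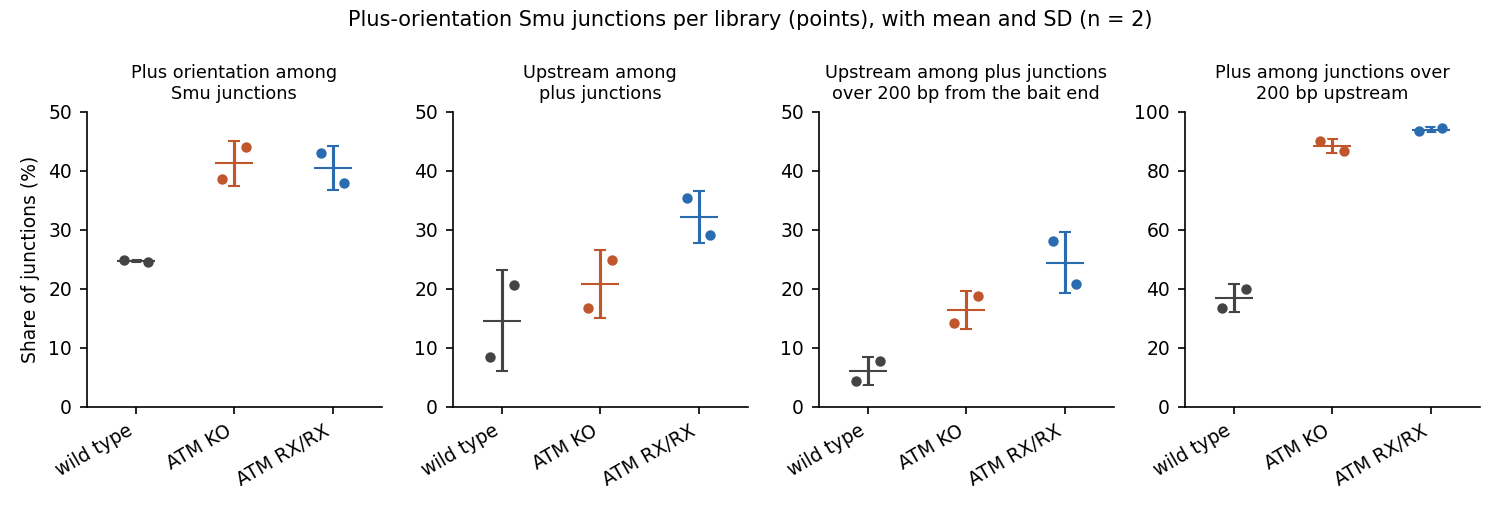
Shares of junctions (%) for the 3 genotypes, with points for libraries, horizontal marks for means and bars for the SD (n = 2). From left to right the panels show plus orientation among Sμ junctions, upstream among plus junctions, upstream among plus junctions over 200 bp from the bait end, and plus among junctions over 200 bp upstream, whose axis runs to 100%. Wild type lies below both mutants in all panels except the second, where wild type replicate 2 (20.6%) exceeds ATM KO replicate 1 (16.7%).

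Counted over all distances, the upstream share was less clearly separated. The wild type replicates had 5 of 59 and 7 of 34 members upstream (8.47% and 20.6%). The ATM KO replicates had 12 of 72 and 96 of 387 (16.7% and 24.8%), and the ATM RX/RX replicates had 82 of 232 and 31 of 107 (35.3% and 29.0%). ATM RX/RX lay above both other groups, whereas wild type and ATM KO overlapped. The difference between the means was 17.6 percentage points for ATM RX/RX against wild type and 11.4 for ATM RX/RX against ATM KO, each with an exact permutation p = 0.3333. For ATM KO against wild type it was 6.21 points (exact permutation p = 0.6667), and 0.148 points without wild type replicate 1. In wild type, 6 of the 8 upstream members within 200 bp used a coordinate found in all 6 libraries, against 6 of 35 for ATM KO and 6 of 40 for ATM RX/RX.

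The orientation of what lay upstream differed in the same way. Among all Sμ junctions more than 200 bp upstream, plus orientation made up 2 of 6 and 2 of 5 in the wild type replicates. It made up 9 of 10 and 64 of 74 for the ATM KO replicates, and for those of ATM RX/RX 56 of 60 and 17 of 18. The means were 36.7% ± 4.71, 88.2% ± 2.48 and 93.9% ± 0.786 (SD, n = 2), with an exact permutation p = 0.3333 for each mutant against wild type. Minus junctions there were few in every library, 1 to 10. The upstream members with the median distance of their genotype are printed to show what such a join looks like. Capitals mark inserted bases that were aligned to neither side.

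Wild type, 413 bp upstream, chr12:114669670-114669709, plus strand: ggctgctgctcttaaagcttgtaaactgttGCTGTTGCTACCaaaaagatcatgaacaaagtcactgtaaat

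ATM KO, 385 bp upstream, chr12:114669642-114669707, plus strand: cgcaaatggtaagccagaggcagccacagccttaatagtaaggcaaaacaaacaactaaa

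ATM RX/RX, 483 bp upstream, chr12:114669740-114669802, plus strand: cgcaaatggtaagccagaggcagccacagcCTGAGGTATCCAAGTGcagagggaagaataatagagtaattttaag

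These were an insertion of 12 bp, a blunt joint and an insertion of 16 bp. The prey of such joins seldom carried the switch repeat. The first 25 bases of the prey held AGCT, the core of the switch repeats and a preferred AID target, in 8 of 150 members more than 200 bp upstream (5.33%), and 5.57% of the 25-base windows in the 2000 bp of mm9 upstream of the bait end hold it. For 113 of the 150 the same bases matched mm9 once at the offset of the bait, and 1 of these lay in an annotated gene segment, so most of this sequence lay in the stretch between J segments and Sμ.

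Downstream, members concentrated near the bait. The 3 bins of 500 bp with most members were 114668501 to 114669000 (187 members), 114669001 to 114669500 (177, the bin with the bait end) and 114668001 to 114668500 (172). In the first of these, the wild type replicates had 6.78% and 14.7% of their members, those of ATM KO 22.2% and 24.3%, and those of ATM RX/RX 20.3% and 19.6%. Both mutants lay above wild type, but the difference did not pass edgeR's quasi-likelihood test after Benjamini-Hochberg adjustment (log2 fold change 1.29 ± 0.47, adjusted p = 0.100 for ATM KO, and 1.04 ± 0.50, adjusted p = 0.154 for ATM RX/RX). The bin just upstream, 114669501 to 114670000, held 83 plus against 5 minus junctions. Its share of members was 1.69% and 5.88% for wild type, then 4.17% and 10.6% for ATM KO, then 12.5% and 6.54% for ATM RX/RX (log2 fold change 1.68 ± 0.77 for ATM RX/RX against wild type, adjusted p = 0.139 by edgeR). None of the 13 plus bins tested passed in any of the 3 comparisons. Over the 27 bins of both orientations, 7.41% were called for ATM RX/RX against wild type, 0% for ATM KO against wild type and 0% between the mutants. At an unadjusted p under 0.05, edgeR had 2, 2 and 1 of the 13 plus bins in these comparisons, against 7, 8 and 1 of all 27 bins. DESeq2 had 0 plus bins in each, against 3, 1 and 0 of all 27 bins.

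The median distance of members from the bait end, regardless of side, was 962 and 846 bp for the wild type replicates, 830 and 736 bp for those of ATM KO, and 703 and 732 bp for those of ATM RX/RX. Each mutant library had a shorter median than both wild type libraries. The means were 904 ± 82.0, 783 ± 66.1 and 718 ± 20.5 bp (SD, n = 2), again with an exact permutation p = 0.3333 for each mutant against wild type. Members more than 2000 bp downstream were 16.9% and 23.5% of the wild type replicates, 16.7% and 11.4% of those of ATM KO, and 12.1% and 14.0% of those of ATM RX/RX. Prey starts 200 to 1000 bp downstream made up 27.1% and 20.6%, 36.1% and 38.0%, and 32.8% and 25.2%.

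Blunt joints were the only member class called, and they fell in minus orientation as well. Blunt joints, in which bait and prey meet with neither overlap nor insertion, were 15 of 59 and 7 of 34 members of the wild type replicates (25.4% and 20.6%). The ATM KO replicates had 9 of 72 and 40 of 387 (12.5% and 10.3%), and the ATM RX/RX replicates had 21 of 232 and 10 of 107 (9.05% and 9.35%). Each mutant library lay below both wild type libraries. Blunt joints fell by 1.36 ± 0.31 on the log2 scale in ATM RX/RX (adjusted p = 0.00508) and fell by 1.14 ± 0.29 in ATM KO (adjusted p = 0.0323), both by edgeR's quasi-likelihood test. The mutants differed from each other by -0.22 on that scale (adjusted p = 0.770). This was 1 of 7 plus classes called against each mutant and 0 of 7 between the mutants. Over all 28 classes, which cover Sμ and Sγ1 in both orientations, 28.6% were called for ATM RX/RX against wild type, 10.7% for ATM KO against wild type and 0% between the mutants. The members' share was below the background in the first comparison and close to it in the second. The fall was not particular to inverted joins: among minus Sμ junctions, blunt joints made up 25.3% ± 2.13 of those of wild type, 11.6% ± 1.62 of those of ATM KO and 11.1% ± 0.434 of those of ATM RX/RX (SD, n = 2). In that orientation they fell by 1.22 ± 0.20 on the log2 scale in ATM RX/RX (adjusted p = 7.88e-04) and fell by 1.06 ± 0.18 in ATM KO (adjusted p = 0.00159), in the same edgeR fit.

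The call rests on few libraries. Without wild type replicate 1 the adjusted p was 0.236 for ATM RX/RX and 0.386 for ATM KO, without ATM RX/RX replicate 1 it was 0.0621 for ATM RX/RX, and without ATM KO replicate 2 it was 0.376 for ATM KO. DESeq2 called 0 classes in any comparison, with adjusted p of 0.0631 and 0.246 for the blunt class. The common dispersion was estimated at nearly 0 (6.84e-08), so these p-values rest mainly on counting error. The blunt members nearest to the bait end are shown for each genotype, with no overlap or insertion to mark.

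Wild type, 106 bp upstream, chr12:114669363-114669409, plus strand: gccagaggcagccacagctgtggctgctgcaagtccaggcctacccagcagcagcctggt

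ATM KO, 123 bp upstream, chr12:114669380-114669492, plus strand: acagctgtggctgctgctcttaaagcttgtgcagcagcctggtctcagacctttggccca

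ATM RX/RX, 107 bp upstream, chr12:114669364-114669435, plus strand: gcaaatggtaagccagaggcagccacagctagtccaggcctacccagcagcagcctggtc

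In the ATM RX/RX member the bait ended at 114669191, the most frequent bait break, which 62 members (6.96%) shared. It is the last base of the AGCT at the centre of the palindrome.

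**Figure D3:**
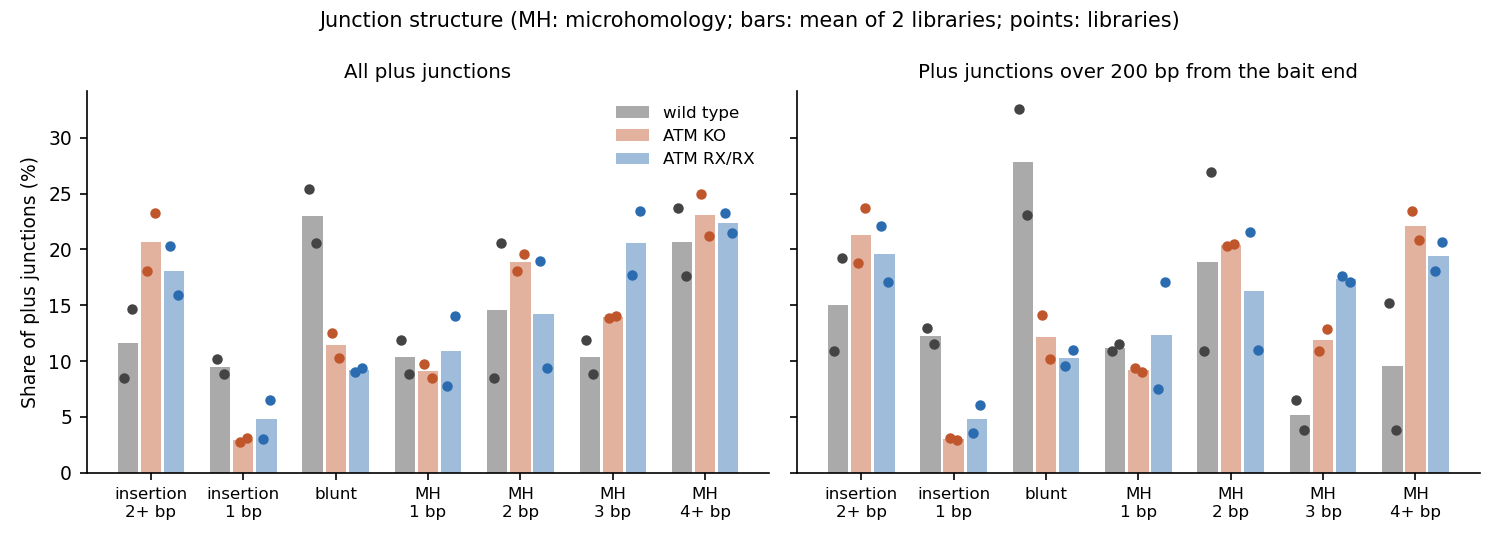
Share of plus junctions (%) in 7 structure classes, for all members (left) and for members over 200 bp from the bait end (right). Bars are means of 2 libraries and points are libraries. Blunt joints are at 25.4% and 20.6% in wild type on the left, above every mutant library, and the class of 3 bp overlaps is higher in the mutants than in wild type on the right.

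Microhomology of any length was used by 55.9% and 55.9% of wild type members, 66.7% and 63.3% of ATM KO members, and 67.7% and 68.2% of ATM RX/RX members. Both mutants lay above wild type, and the differences were 12.0 percentage points for ATM RX/RX and 9.08 for ATM KO (exact permutation p = 0.3333 each). Fisher's exact test told 0 of 4 library pairs apart in any comparison after adjustment. Minus Sμ junctions used microhomology in 58.4% ± 0.399, 72.4% ± 4.64 and 75.4% ± 0.229 of cases in wild type, ATM KO and ATM RX/RX (SD, n = 2). Beyond 200 bp of the bait end the wild type values were lower, 43.5% and 46.2%, while those of ATM KO (64.1% and 63.2%) and ATM RX/RX (64.8% and 65.9%) stayed near the values over all members. There, overlaps of 3 bp were 3 of 46 and 1 of 26 members in wild type (6.52% and 3.85%), with 10.9% and 12.9% for ATM KO and 17.6% and 17.1% for ATM RX/RX.

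With near-bait members left out and the edgeR fit repeated, 3 of 7 plus classes passed for ATM RX/RX against wild type and 2 of 7 for ATM KO. Over all 28 classes of that fit 46.4% and 14.3% passed, so for ATM RX/RX the members' share was no higher than the background. In ATM RX/RX, overlaps of 3 bp rose (log2 fold change 1.63 ± 0.46, adjusted p = 0.0311), blunt joints fell by 1.54 ± 0.34 on the log2 scale (adjusted p = 0.00594) and insertions of 1 bp fell by 1.53 ± 0.50 (adjusted p = 0.0466). For ATM KO against wild type, blunt joints fell by 1.42 ± 0.32 (adjusted p = 0.0123) and insertions of 1 bp fell by 2.04 ± 0.51 (adjusted p = 0.0160). Insertions of 1 bp then stood at 6 of 46 and 3 of 26 members in wild type, against 2 of 64, 10 of 342, 7 of 199 and 5 of 82 in the mutant libraries. Among overlaps of at least 3 bp in all members, the commonest letters were CAG (29 of 337), CAGCT (24) and CCAG (22), read 5′ to 3′ along the bait.

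Long insertions were frequent among inverted joins and often carried sequence of the same locus. Insertions of 10 bp or more were present in 3 of 59 and 2 of 34 wild type members (5.08% and 5.88%). The ATM KO replicates had 7 of 72 and 44 of 387 (9.72% and 11.4%), and the ATM RX/RX replicates had 21 of 232 and 7 of 107 (9.05% and 6.54%). The longest in the lists was 29 bp. Of 70 members with an insertion of at least 12 bp, 49 (70.0%) shared a run of 12 bases with mm9 between Ighm and 3000 bp above the biotin primer (chr12:114660942-114668001). The run matched the minus-strand sequence, which reads in the direction of transcription, in 35 and the plus-strand sequence in 14. In 6 it lay in the first 120 bases of the bait. By genotype the matching counts were 1 of 4 in wild type, 34 of 45 in ATM KO and 14 of 21 in ATM RX/RX. In minus orientation 23 of 46 such insertions matched. The search used mm9 rather than 129 sequence, so insertions without a match may still come from the locus. The longest insertion of each genotype is printed first, then the member of median distance of each genotype, all 3 of which also carried an insertion. Capitals mark the insertion.

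Wild type, insertion of 27 bp, chr12:114667375-114667426, plus strand: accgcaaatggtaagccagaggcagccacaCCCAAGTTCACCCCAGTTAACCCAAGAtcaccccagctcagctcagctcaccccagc

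ATM KO, insertion of 29 bp, chr12:114667934-114668129, plus strand: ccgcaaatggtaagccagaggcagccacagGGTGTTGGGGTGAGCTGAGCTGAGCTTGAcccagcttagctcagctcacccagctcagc

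ATM RX/RX, insertion of 29 bp, chr12:114667977-114668011, plus strand: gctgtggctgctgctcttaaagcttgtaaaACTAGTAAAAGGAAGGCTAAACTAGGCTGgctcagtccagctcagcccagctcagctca

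Wild type, insertion of 1 bp, 962 bp downstream, chr12:114668295-114668503, plus strand: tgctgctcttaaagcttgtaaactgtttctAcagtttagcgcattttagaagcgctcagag

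ATM KO, insertion of 13 bp, 749 bp downstream, chr12:114668508-114668659, plus strand: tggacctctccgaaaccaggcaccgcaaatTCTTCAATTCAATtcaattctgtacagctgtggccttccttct

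ATM RX/RX, insertion of 25 bp, 710 bp downstream, chr12:114668547-114668699, plus strand: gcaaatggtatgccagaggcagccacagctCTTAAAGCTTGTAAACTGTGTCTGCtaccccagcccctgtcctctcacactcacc

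The insertions of 29 bp in both mutants matched the minus-strand sequence of the locus, which reads in the direction of transcription. The wild type insertion of 27 bp had no run of 12 bases in mm9 there. The 13 bp insertion of the ATM KO member of median distance matched neither strand. In the last member the inserted bases share a run with the bait beyond the point where its alignment stopped.

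Inverted joins differed from the minus-orientation Sμ junctions of the same libraries. Over the 6 libraries, 22.5% ± 9.45 of plus and 1.97% ± 1.07 of minus junctions lay upstream of the bait end (SD, n = 6), with plus higher in 6 of 6 libraries (exact sign-flip test, p = 0.03125, the smallest possible, and adjusted p = 0.04018 over 9 measures). A deletion on the same molecule leaves the prey downstream of the bait. The direction of this difference was therefore largely fixed in advance, and the p-value carries no weight for it. Downstream beyond 200 bp, plus junctions lay closer to the bait. Their median distance was 1131 ± 186 bp against 1814 ± 508 bp in minus orientation, with differences of -1409 to -91.0 bp in the 6 libraries (exact p = 0.03125, adjusted p = 0.04018). Insertions of 2 bp or more were found in 16.8% ± 5.09 of plus and 10.3% ± 2.43 of minus junctions, and insertions of 10 bp or more in 7.94% ± 2.47 and 3.52% ± 1.92. Both were higher in plus orientation in 6 of 6 libraries, with the same exact and adjusted p. Every measure with 1 direction in all 6 libraries gets this exact p, so its adjusted p reflects which measures were adjusted together. AGCT within the first 25 prey bases downstream was less frequent in plus (56.2% ± 5.91) than in minus orientation (68.5% ± 8.58), also in 6 of 6 libraries (exact p = 0.03125, adjusted p = 0.04018). In mm9, 53.6% of the 25-base windows between Ighm and the bait end hold AGCT. Of 609 members more than 200 bp downstream, 304 matched mm9 at the offset of the bait and 186 had no exact match. The mm9 share is therefore not a background for all of them. AGCT reads the same on both strands. The orientations also differed in how far from the bait they lay, and what underlies the difference in AGCT was not tested.

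**Figure D4:**
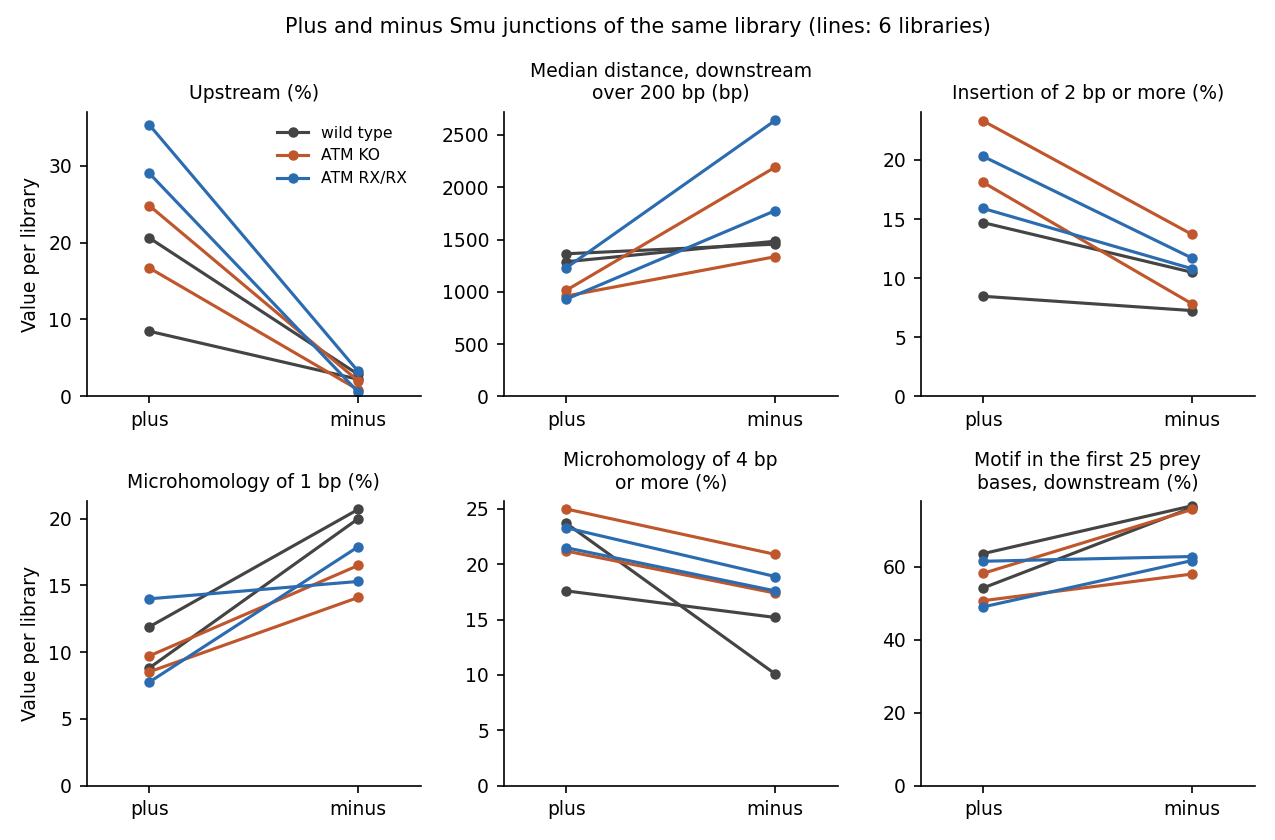
Values of plus and minus Sμ junctions of the same library, joined by a line per library (6 libraries, coloured by genotype), for upstream share, median downstream distance, 3 structure classes and the share of downstream prey starts with AGCT in their first 25 bases. Axes are percent of junctions, or bp for the distance. The lines run in 1 direction in every panel, toward lower upstream shares and longer distances in minus orientation.

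Overlaps also differed, and for those of 4 bp or more this depended on the vicinity of the bait. Over all junctions, overlaps of 4 bp or more were found in 22.1% ± 2.59 of plus and 16.7% ± 3.74 of minus junctions, and overlaps of 1 bp in 10.1% ± 2.37 and 17.4% ± 2.58 (exact p = 0.03125, adjusted p = 0.04018 for both, 6 of 6 libraries). Beyond 200 bp of the bait end, overlaps of 4 bp or more were found in 17.0% ± 7.03 and 17.9% ± 3.76 (exact p = 0.938, higher in 4 of 6 libraries). Overlaps of 1 bp were found there in 10.9% ± 3.33 and 16.5% ± 1.88 (exact p = 0.06250, lower in 5 of 6). Microhomology of any length was found there in 57.9% ± 10.2 of plus and 68.5% ± 9.24 of minus junctions, lower in plus orientation in 6 of 6 libraries (exact p = 0.03125, adjusted p = 0.05469 over 7 measures). Insertions of 10 bp or more kept their difference there, at 8.95% ± 2.10 against 2.56% ± 1.72 in 6 of 6 libraries (exact p = 0.03125, adjusted p = 0.05469). Blunt joints were found in 14.5% ± 6.84 of plus and 16.0% ± 7.33 of minus junctions (exact p = 0.156, adjusted p = 0.176), lower in plus orientation in 5 of 6 libraries.

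On the bait side, values of both orientations were close. The bait aligned over a median of 56.5 to 62.0 bp in plus and 56.0 to 62.0 bp in minus orientation, depending on the library (exact p = 0.750). Both orientations share the nested primer and the AflII step, so this p-value says little about the breaks themselves. Bait breaks inside the palindrome made up 326 of 891 plus junctions (36.6%) and 485 of 1377 minus junctions (35.2%). In plus orientation this share was 39.0% and 38.2% for wild type, 38.9% and 36.2% for ATM KO, and 36.6% and 34.6% for ATM RX/RX. After 114669191, the commonest break was at 114669226 with 40 members (4.49%). It is the break of the recurrent junction 73 bp downstream printed above.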

How the data were processed

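The members and the classes described were chosen with earlier results of these data known. Per the labels' protocols, a biotinylated primer in Sμ served for linear amplification of genomic DNA, a nested primer for PCR, and AflII for removing unrearranged product before MiSeq sequencing. The submitters' processing notes name Bowtie2, with no version, and mm9. Per the series' design text, 129 sequence was put in place of the IgH segment that runs from JH4 to Cα (mm9sr). The authors deposited junction lists, whose other values are coordinates, orientation and read positions per junction, and whole-number counts of junctions per bin of 50 bp.

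Members are all non-empty lines of the Sμ lists with strand 1. Their structure is the start of the prey alignment on the read minus the end of the bait alignment minus 1, so that a negative value is microhomology, 0 is blunt and a positive value is an insertion. Distances run from 114669257, the commonest bait end (85.7% of members). The members' classes and 500-bp bins with at least 10 junctions were tested with edgeR 4.0.16 (quasi-likelihood, common dispersion) in R 4.3.3, fitted over all classes or bins of both orientations, with Benjamini-Hochberg adjustment and a threshold of 0.05. DESeq2 1.42.0 was an alternative. Tested on simulated counts for ATM RX/RX against wild type, edgeR recovered 39.2% of 2-fold and 91.7% of 4-fold increases among 28 structure classes, and 15% and 62.5% among 27 bins. The simulated structure counts had hardly any spread between libraries beyond counting error. Recovery of falls, and of changes in plus classes alone, was not tested. Single values were compared by exact permutation over libraries and by Fisher's exact test between libraries (scipy 1.17.1). The comparison of orientations within libraries was chosen after seeing the data. Named classes and bins are those past the threshold, the 3 bins with most members and the coordinates shared by most libraries. Printed junctions are, per genotype, the longest overlap, the longest insertion, the blunt joint nearest the bait end and a junction of median distance, and junctions of median distance upstream were added after seeing the data. Intervals are exact (Clopper-Pearson, 95%) and cover counting error only, since no molecular identifiers are given and PCR reads need not be independent molecules.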

Additional observations from a re-analysis of the deposited data

How the results depend on the processing

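The direction of the plus share, upstream share, median distance and microhomology share of members against wild type was kept in both mutants under every alternative run, which included counting identical junctions once, measuring from each read's own bait break, leaving out near-bait members or the 4 coordinates found in all 6 libraries, and leaving out each library in turn. Without 1 library, the upstream difference ranged from 11.6 to 23.7 percentage points for ATM RX/RX and from 0.148 to 12.3 for ATM KO. The plus share of ATM RX/RX minus ATM KO (-0.764 points) was 1.92 without ATM KO replicate 2 and 1.85 without ATM RX/RX replicate 2, with a lowest value over left-out libraries of -3.45. Their difference in median distance (-65.2 bp) was 64.8 bp beyond 200 bp of the bait end. The change in microhomology share between plus and minus orientation (-4.99 points for ATM RX/RX and -4.91 for ATM KO against wild type) became 3.49 and 4.80 beyond 200 bp, and 0.335 and 0.487 without the 4 shared coordinates, while between the mutants (-0.0734) it ranged from -1.67 to 1.53 without 1 library, being 0.0406 without ATM RX/RX replicate 1. These alternatives leave out junctions by construction, and the cause of the sign changes was not tested further.

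Among structure classes, called plus classes were 0 and 0 of 7 with DESeq2 (against 1 and 1 for ATM RX/RX and ATM KO), where 0% of all 28 classes were called. They were 3 and 2 without near-bait members, where 46.4% and 14.3% of all classes were called, and 2 for ATM KO with TMM factors, where 21.4% were. Without 1 library they were 0 to 1 in both comparisons, with 10.7% to 28.6% of all classes called for ATM RX/RX and 0% to 14.3% for ATM KO. Called plus bins were 1 for ATM RX/RX with bins of 1000 bp (23.5% of all bins), and 0 to 1 for ATM KO without 1 library, the 1 being without ATM KO replicate 1 (26.9% of all bins). The bin 114669001 to 114669500 had a log2 fold change of -0.39 to 0.06 without 1 library for ATM RX/RX, against -0.21. The bin 114668001 to 114668500 had -0.91 to 0.33 for ATM RX/RX, against -0.52, and -0.30 to 0.90 for ATM KO, against 0.04. The labels give no pairing by replicate number. Correlations between same-numbered libraries ran from -0.762 to 0.762 over the 7 structure classes, which are too few to decide whether such a pairing exists. With the replicate number as a block, 0 plus classes were called for ATM KO (3.57% of all classes) and 1 for ATM RX/RX (28.6%), and differences of shares and medians were the same by construction. The limits are 2 libraries per group, 34 to 387 members per library, and 4 wild type members more than 200 bp upstream.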
